A study of Mus musculus with 12 samples.

Results

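The nuclear pore complex genes were followed in blood stem and progenitor cells that had lost NFAT5, a Rel-family transcription factor that cells use to adapt to hypertonicity. Members were all genes with a symbol of the form Nup plus a number in the platform annotation, together with Ndc1, Aaas, Rae1, Seh1l, Sec13 and Pom121. This gave 22 of 19494 named genes, 16 by the symbol and 6 by name, each with 1 probe set. Tpr, the remaining gene on the list, was not analysed here. The family was selected on the measured values of Nup160, whose difference between NFAT5-deficient and wild-type cells had opposite signs in HSC and MPP on these same arrays. Differences between genotypes are therefore given as descriptions, and no p-value of a member is read for them.

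The 4 groups held 3 arrays each. They were HSC of Nfat5 fl/fl Vav-Cre donors (KO HSC), HSC of Nfat5 +/+ Vav-Cre donors (WT HSC), MPP of Nfat5 fl/fl Vav-Cre donors (KO MPP) and MPP of Nfat5 +/+ Vav-Cre donors (WT MPP). HSC are hematopoietic stem cells, sorted as CD48-negative and CD150-positive, and MPP are multipotent progenitors, sorted as CD48-positive and CD150-negative. Both gates lay inside the LSK (lineage-negative, Sca-1-positive, Kit-positive) fraction of bone marrow. All groups, controls included, carried Vav-Cre, which is active across blood cells, and all cells were CD45.2 donor cells recovered 13 weeks after transfer into irradiated CD45.1 wild-type recipients. The labels give no age, and they do not say whether HSC and MPP arrays of the same number (64, 70 and 76 in KO, 66, 67 and 75 in WT) came from the same recipient, so p-values measure the spread between these samples. Levels are log2 intensities, and a difference of 1 is a doubling. The level of a probe set cannot be set against that of another.

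The nuclear pore complex is the channel through which proteins and RNA pass between nucleus and cytoplasm. An outer ring on either face, built of Y-shaped complexes, and an inner ring form its scaffold. Membrane proteins anchor it in the nuclear envelope. Nucleoporins rich in phenylalanine-glycine (FG) repeats fill the channel and bind the import and export receptors. Filaments reach into the cytoplasm and a basket hangs into the nucleus, where some nucleoporins also contact chromatin.

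The sorting markers were read first. Slamf1, which encodes CD150, read 10.08 in KO HSC and 9.84 in WT HSC, against 6.46 in KO MPP and 6.26 in WT MPP. Nfat5 read 8.24 ± 0.58 in KO HSC against 9.49 ± 0.29 in WT HSC, and 7.92 ± 0.42 in KO MPP against 8.58 ± 0.41 in WT MPP (SD, n = 3 each). Arrays within a group correlated at 0.898 to 0.952 over all genes. Genes of mature neutrophils averaged 6.88 and 7.38 on WT HSC arrays 66 and 67, against 5.42 to 5.53 on KO HSC arrays and 5.52 on WT HSC array 75. In MPP they averaged 6.94 and 7.02 on WT arrays 66 and 67, against 6.01 to 6.62 on KO arrays and 5.96 on WT array 75. Ins2, an insulin gene of the pancreas, had group means of 7.61 to 7.81, so the background of a probe set could reach that level on these arrays. It was the highest of 7 low-end anchors, genes of other tissues and of the Y chromosome, whose group means started at 3.65. Nup133, Nup107, Nup205, Nup54 and Sec13 had means over the 12 arrays of 7.17 to 7.73, and how much of their signal was background was not tested.

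Member means over the 12 arrays lay between 7.17 and 11.29, and single values between 5.72 and 11.82. The median spread within groups was 0.53 log2 units for members, from 0.22 for Pom121, a membrane nucleoporin, to 1.26 for Nup54, an FG nucleoporin of the central channel. At that spread the 95% interval of a typical member reached 0.89 to either side for a difference between 2 groups. The members' mean per array lay between 8.77 and 8.90 in KO HSC, 8.71 and 8.97 in WT HSC, 9.05 and 9.22 in KO MPP, and 8.81 and 8.99 in WT MPP. These ranges overlapped between KO HSC, WT HSC and WT MPP, with the KO MPP arrays above them.

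**Figure D1:**
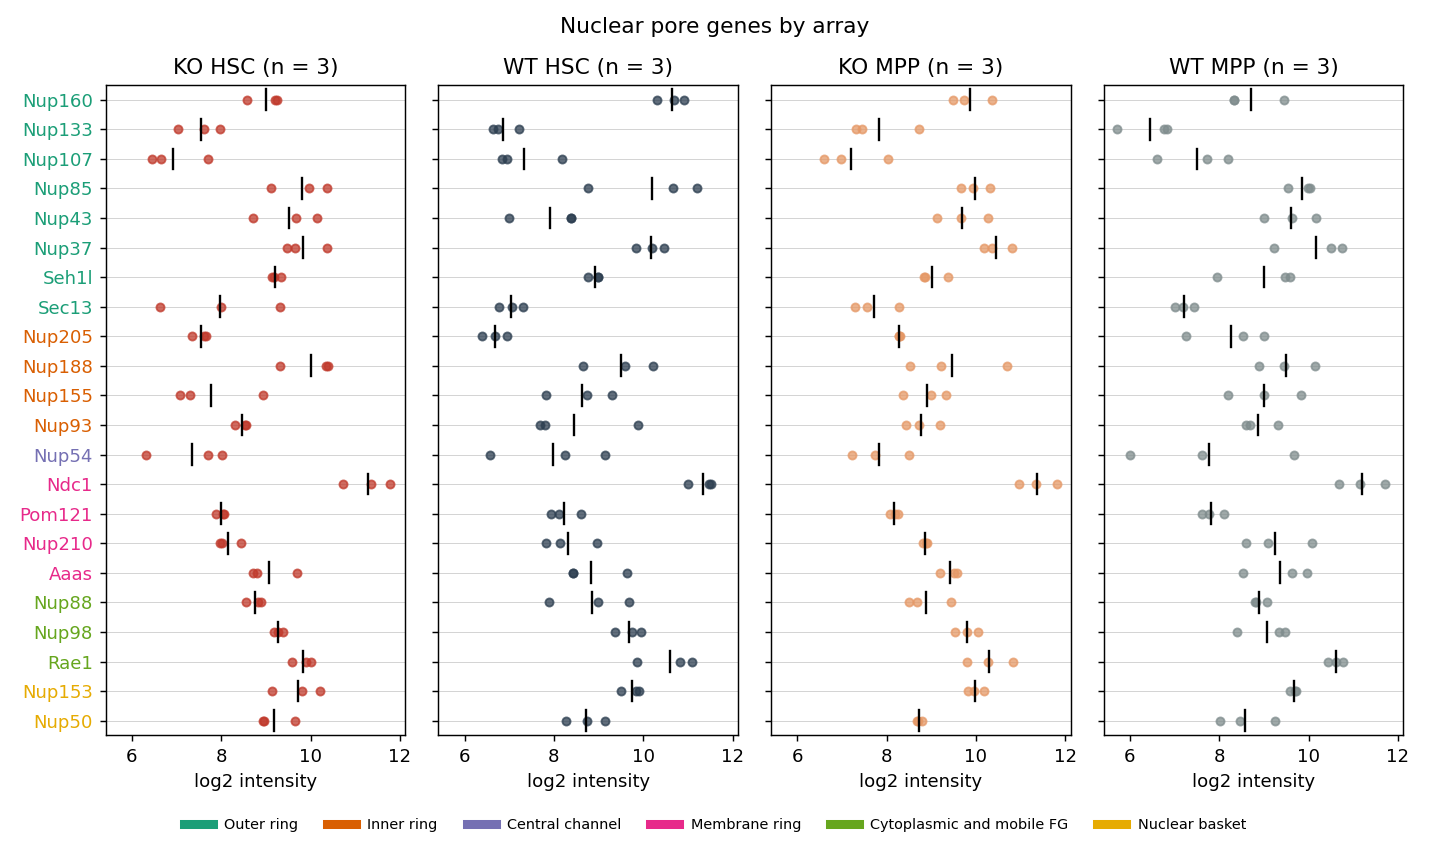
Log2 intensity (x axis) of the 22 nuclear pore genes (rows, coloured by their place in the complex) on each array of the 4 groups. Points are arrays and black bars are means of 3 arrays; most members overlap between groups, whereas Nup160 lies at 10.31 to 10.92 in WT HSC and at 8.57 to 9.25 in KO HSC.

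Nup160, a scaffold protein of the outer ring's Y complex, was the gene on which the family was selected. It read 8.57, 9.20 and 9.25 in KO HSC, against 10.92, 10.69 and 10.31 in WT HSC. In MPP the order was turned, with 9.48, 9.73 and 10.36 in KO MPP, against 9.46, 8.33 and 8.34 in WT MPP. The genotype groups did not overlap in either population, although the lowest KO MPP array lay only just above the highest WT MPP array. The means were 9.01 ± 0.38 in KO HSC and 10.64 ± 0.31 in WT HSC, a difference of -1.63, so that the KO level was 32.3% of the WT level. They were 9.86 ± 0.45 in KO MPP and 8.71 ± 0.65 in WT MPP (SD, n = 3 each), a difference of 1.15, or 2.22-fold. Within genotypes this placed Nup160 lower in HSC than in MPP in KO cells (-0.85) and higher in HSC than in MPP in WT cells (1.93). These values chose the family and carry no test. The mean of the neutrophil genes was higher on WT arrays 66 and 67 than on the KO arrays in both HSC and MPP. By their median this held in HSC but not in MPP. There KO array 70 had 6.48, against 6.17 and 5.83 on WT arrays 66 and 67. The part of the neutrophil genes in the Nup160 differences was not tested.

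**Figure D2:**
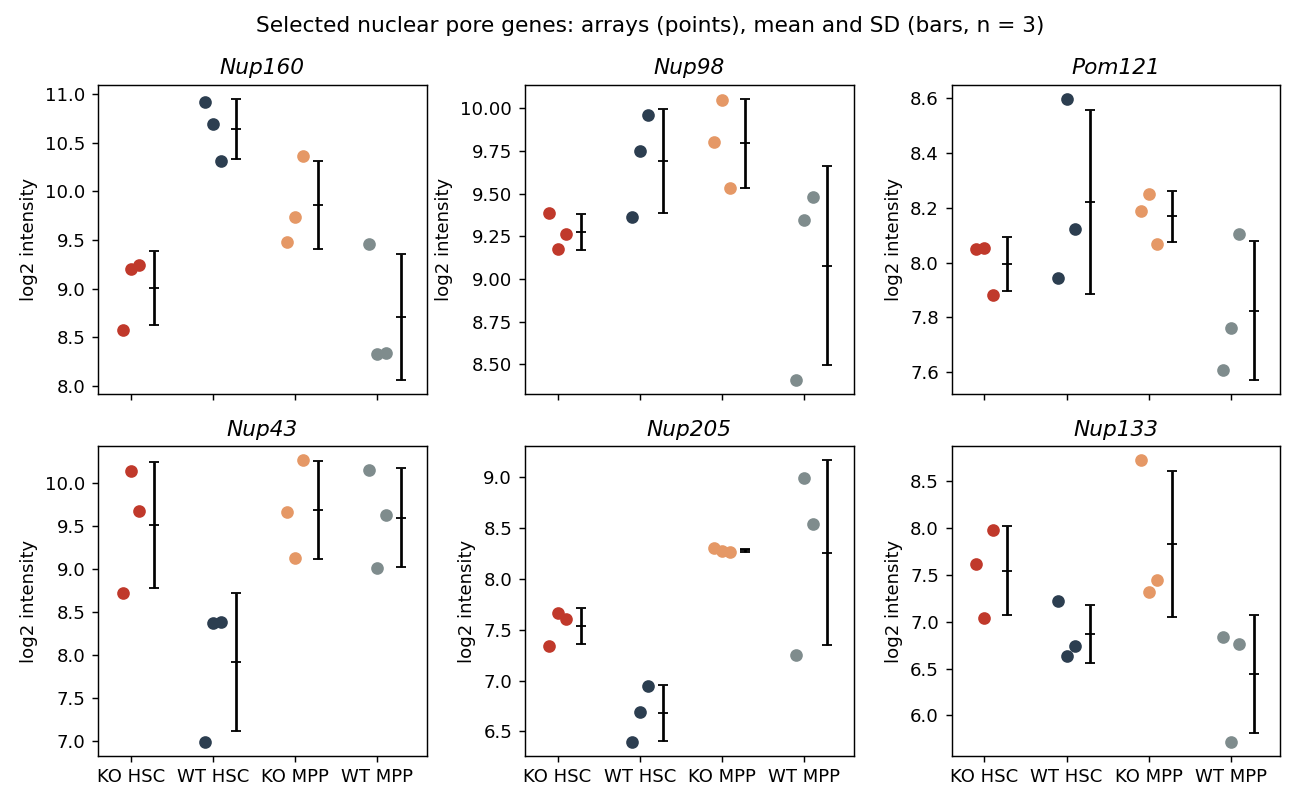
Log2 intensity of 6 members in KO HSC, WT HSC, KO MPP and WT MPP; points are arrays and bars show the mean and SD of 3 arrays. Nup160, Nup98 and Pom121 have a lower KO mean in HSC and a higher KO mean in MPP, whereas Nup43 and Nup205 read lower in WT HSC than in KO HSC. Nup205 also reads lower in KO HSC than in KO MPP.

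Promoter windows from RefSeq (GRCm38.p6; 250 bases before to 50 after the start) were available for 19 members. Nup43, Nup85 and Seh1l had no entry. The core TGGAAA of the element that NFAT5 binds was present, on either strand, in the windows of 4 of these 19 members (Aaas, Nup93, Pom121 and Rae1), or 21.1%, against 23.9% of all 27025 genes with a window. CCGGAAG, a core of ETS factor sites, which shares GGAA with the NFAT5 core but cannot hold it, was present in 7 of 19 (36.8%), against 9.93% of all genes. Those were Aaas, Nup107, Nup155, Nup37, Nup54, Rae1 and Sec13. The shares over all genes were not matched for level, and even the lowest member mean lay above 63.2% of genes on these arrays. The windows of Nup160, of Pom121, whose genotype differences had the same signs at a smaller size, and of Nup205, the member furthest apart between HSC and MPP when both genotypes are averaged, are shown 5′ to 3′, with matches to either core in capitals. They lie on GRCm38.p6 at chr2:90676965-90677264 (plus strand), chr5:135394497-135394796 (minus strand) and chr6:35177366-35177665 (plus strand).
Nup160: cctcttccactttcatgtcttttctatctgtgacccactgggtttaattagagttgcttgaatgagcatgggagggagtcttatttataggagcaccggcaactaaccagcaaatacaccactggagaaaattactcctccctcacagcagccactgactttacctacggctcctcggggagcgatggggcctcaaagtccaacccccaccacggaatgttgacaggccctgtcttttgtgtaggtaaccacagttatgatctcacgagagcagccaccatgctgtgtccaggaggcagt
Pom121: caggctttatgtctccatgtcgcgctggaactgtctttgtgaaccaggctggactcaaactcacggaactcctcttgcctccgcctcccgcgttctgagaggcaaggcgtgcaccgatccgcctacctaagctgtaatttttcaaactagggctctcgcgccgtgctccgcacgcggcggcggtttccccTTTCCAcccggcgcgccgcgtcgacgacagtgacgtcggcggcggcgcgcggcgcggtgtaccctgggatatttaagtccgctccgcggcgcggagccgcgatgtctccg
Nup205: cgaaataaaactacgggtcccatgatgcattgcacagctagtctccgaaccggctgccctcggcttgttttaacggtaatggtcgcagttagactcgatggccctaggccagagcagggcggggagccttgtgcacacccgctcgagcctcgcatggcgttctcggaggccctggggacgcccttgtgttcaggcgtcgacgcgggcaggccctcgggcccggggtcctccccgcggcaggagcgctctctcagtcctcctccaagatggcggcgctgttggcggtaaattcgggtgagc
The Nup160 and Nup205 windows held neither core, and the Pom121 window held 1 match to TGGAAA, read as TTTCCA on the strand shown. Nup98, Nup37, Nup54, Ndc1 and Nup153 also had a lower KO mean in HSC and a higher KO mean in MPP. Their windows held no TGGAAA. Nup85 had these signs too, but no window.

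Among the other outer ring genes, groups were apart for Nup43 and Seh1l in HSC and for Nup133 in MPP. Nup133, in the stem of the Y complex, read 7.62, 7.04 and 7.98 in KO HSC against 7.22, 6.64 and 6.74 in WT HSC, and 8.72, 7.32 and 7.44 in KO MPP against 6.84, 5.72 and 6.76 in WT MPP. The KO means were higher in both populations (by 0.68 and 1.39), with overlap in HSC and none in MPP. Nup43, a propeller protein of the same complex, read 8.71, 10.15 and 9.68 in KO HSC against 6.99, 8.37 and 8.38 in WT HSC. These groups did not overlap (difference 1.60), while in MPP the means were 9.69 ± 0.57 in KO and 9.60 ± 0.58 in WT cells (SD, n = 3 each). Leaving out single arrays, the Nup43 difference in HSC ran from 1.13 to 1.997. It was 0.82 without both WT HSC array 66 and KO HSC array 70, its lowest WT and highest KO arrays, which had stood apart in an earlier account of these data. Seh1l, which also serves in a nutrient-sensing complex, had no overlap in HSC either, at 9.17, 9.34 and 9.13 in KO HSC against 8.99, 8.98 and 8.77 in WT HSC, although the difference was only 0.30. Sec13, shared with the coat of secretory vesicles, spread from 6.62 to 9.33 in KO HSC against 6.76 to 7.32 in WT HSC, and its difference was 0.93. That of Sec13 was 0.26 without KO HSC array 70, 1.61 without KO HSC array 76 and 0.11 without both WT HSC array 66 and KO HSC array 70. Nup107, Nup85 and Nup37 differed by -0.40, -0.39 and -0.34 in HSC and by -0.30, 0.12 and 0.29 in MPP, all with overlapping groups. The sign of the HSC difference turned for Nup107 without WT HSC array 66 (0.03) and for Nup85 without WT HSC array 67 (0.11).

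Of the inner ring genes, which encode the large scaffold proteins around the channel, Nup205 read 7.34, 7.67 and 7.61 in KO HSC against 6.40, 6.69 and 6.95 in WT HSC. These groups did not overlap, and the difference was 0.86. In MPP it read 8.30, 8.28 and 8.27 in KO cells against 7.25, 8.99 and 8.54 in WT cells, where 1 WT array lay below and 2 above all KO arrays. Nup155 read 8.94, 7.08 and 7.31 in KO HSC against 7.82, 9.31 and 8.75 in WT HSC, a difference of -0.85 with overlap, which was -1.43 without KO HSC array 64 and -0.50 without KO HSC array 70. In MPP it read 8.37, 8.99 and 9.33 in KO cells against 8.21 to 9.83 in WT cells, a range that held all 3 KO arrays. Nup188 and Nup93 differed by 0.53 and 0.00 in HSC and by -0.02 and -0.09 in MPP. WT HSC array 67 read 9.89 for Nup93, against 7.79 and 7.69 on the other WT HSC arrays. Without it, the Nup93 difference in HSC was 0.72.

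Among the FG nucleoporins and their partners, Nup98, a mobile nucleoporin that also acts in RNA export, had the next most negative difference between the effects in HSC and MPP, -1.13 against -2.78 for Nup160. It read 9.39, 9.17 and 9.27 in KO HSC against 9.36, 9.75 and 9.96 in WT HSC, and 9.80, 10.05 and 9.53 in KO MPP against 8.41, 9.34 and 9.48 in WT MPP. The KO mean was lower in HSC (-0.42), where array 64 overlapped WT array 66, and higher in MPP (0.72), where the groups did not overlap. Without WT MPP array 66, which read 8.41, the Nup98 difference in MPP was 0.38. Rae1, the RNA export factor that binds Nup98, was lower in KO cells in both populations (-0.75 and -0.31), with overlap in both. Nup88, on the cytoplasmic face, differed by -0.10 and -0.02, and Nup54 by -0.65 in HSC and 0.06 in MPP, where its SD within groups ran from 0.64 to 1.84. Leaving out single arrays, the Nup54 difference in HSC ran from -1.36 to -0.07.

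For membrane and basket genes, genotype differences were at most 0.45 in size. Pom121 read 8.05, 8.05 and 7.88 in KO HSC against 7.95, 8.60 and 8.12 in WT HSC, and 8.19, 8.25 and 8.07 in KO MPP against 7.61, 7.76 and 8.10 in WT MPP. Its differences were -0.23 in HSC and 0.34 in MPP, the groups overlapping in both. Ndc1, Nup210 and Aaas differed by -0.05, -0.17 and 0.23 in HSC and by 0.19, -0.40 and 0.05 in MPP. Of the basket genes, Nup50, which helps importin cargo leave its receptor, differed by 0.45 and 0.15, and Nup153 by -0.03 and 0.32. For Nup153 the MPP groups did not overlap, at 9.83 to 10.19 in KO against 9.59 to 9.72 in WT cells.

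**Figure D3:**
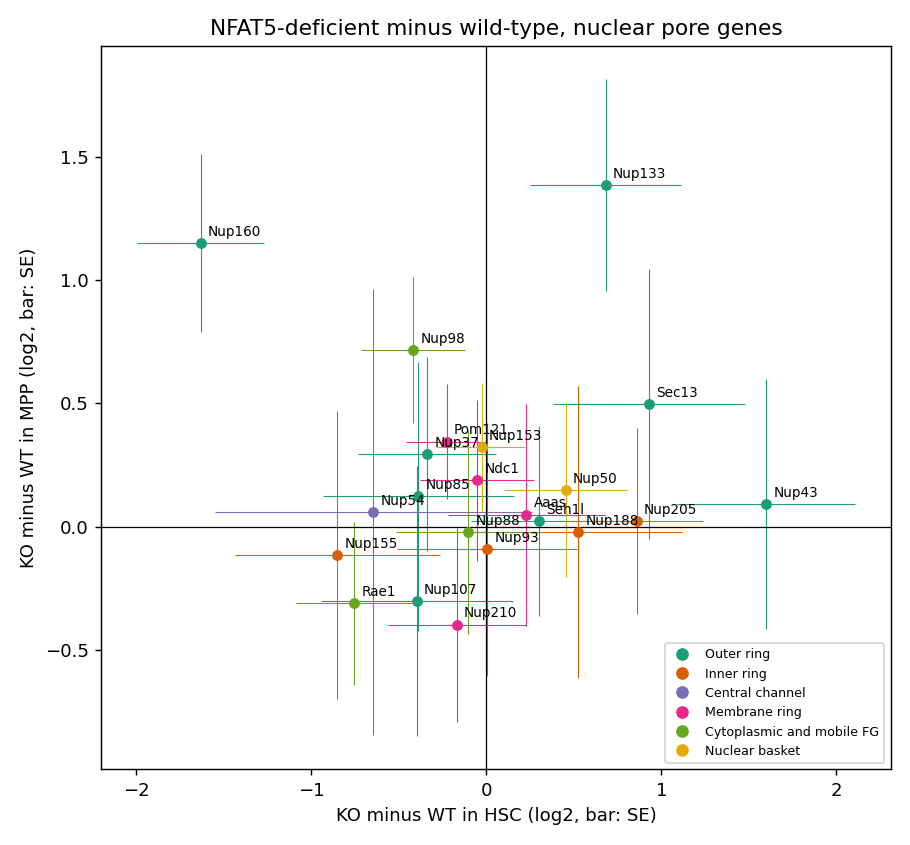
KO minus WT log2 difference of each nuclear pore gene in HSC (x axis) and in MPP (y axis), with standard errors as bars and colours by place in the complex. Nup160 stands alone at -1.63 and 1.15, Nup43 lies far right at 1.60, and Nup133 lies highest at 1.39.

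Counted over the family, 0 of 22 members were called for loss of NFAT5 in HSC (limma adjusted p under 0.05), where 0% of all genes were called, and 0 of 22 in MPP, where 0.00513% were. For the difference between these effects the counts were 0 of 22 and 0%. At an unadjusted p under 0.05, 6.18% of all genes passed in HSC, 5.35% in MPP and 4.19% for the difference. Groups did not overlap for 4 members in HSC, against 10.2% of all genes, and for 4 in MPP, against 12.6%. Opposite directions with no overlap in either population were seen for Nup160 alone among members, and for 0.416% of all genes. Nothing is read from these counts, since the same comparisons drew attention to the family. The median member difference was -0.08 in HSC, where that of all genes was -0.05, and 0.08 in MPP, where it was -0.07. Values were higher in KO cells for 9 of 22 members in HSC (41.6% of all genes) and for 15 of 22 in MPP (38.9% of all genes). In these and later counts, the shares and medians over all genes were not matched for level or spread. Even the lowest member mean lay above 63.2% of genes. The median spread within groups was 0.53 for members, 0.47 for genes in their level range and 0.25 for all genes.

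The comparison of HSC with MPP, averaged over both genotypes, did not enter the choice of the genes. In it 0 of 22 members were called by limma, where 0.61% of all genes were. At an unadjusted p under 0.05, 3 members passed (Nup205, Nup210 and Nup43), all lower in HSC, where 4.71% of all genes passed as lower and 7.44% as higher. The 6 HSC arrays and the 6 MPP arrays were apart for 0 members, against 1.33% of all genes. Values were lower in HSC for 12 of 22 members, against 36.6% of all genes. Nup205 came nearest to a call. Its HSC arrays read 7.34, 7.67 and 7.61 in KO and 6.40, 6.69 and 6.95 in WT cells, against MPP arrays of 8.30, 8.28 and 8.27 in KO and 7.25, 8.99 and 8.54 in WT cells. All HSC arrays lay below all MPP arrays except WT MPP array 66. The averaged difference was -1.16 (SE 0.27, 95% interval -1.75 to -0.57), with a limma adjusted p of 0.104. Without WT MPP array 66 it was -1.42, with a limma adjusted p of 0.00871, and Nup205 was then the only member called. Without WT MPP array 67 it was -0.98. With single arrays left out, its limma adjusted p ran up to 0.217. The number of all genes called without WT MPP array 66 is not given here, so that call is not read as particular to Nup205.

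Nup210, a membrane nucleoporin, read 8.01, 7.97 and 8.44 in KO HSC and 7.83, 8.13 and 8.97 in WT HSC, against 8.91, 8.81 and 8.87 in KO MPP and 8.60, 10.09 and 9.10 in WT MPP. The groups were apart in KO cells and overlapped in WT cells, and the averaged difference was -0.84 (SE 0.28, limma adjusted p = 0.271). Nup43 differed by -0.93 (SE 0.36, adjusted p = 0.343), with -0.18 in KO cells and -1.68 in WT cells. Nup160 differed by 0.54 (SE 0.26, adjusted p = 0.434), an average over opposite signs. Next in order were Nup155 (-0.76), Aaas (-0.45), a protein that Ndc1 anchors at the pore, Nup50 (0.30) and Nup37 (-0.31), with limma adjusted p of 0.493 to 0.669. Aaas read 8.71, 9.69 and 8.79 in KO HSC and 8.42, 8.43 and 9.65 in WT HSC, against 9.19, 9.57 and 9.50 in KO MPP and 9.62, 8.52 and 9.97 in WT MPP, with overlap in both genotypes. Nup50 read 8.95, 9.65 and 8.93 in KO HSC and 8.28, 8.75 and 9.15 in WT HSC, against 8.71, 8.68 and 8.80 in KO MPP and 8.47, 9.26 and 8.02 in WT MPP. Only the KO groups of Nup50 were apart. Nup37 read 10.37, 9.46 and 9.65 in KO HSC and 9.83, 10.20 and 10.47 in WT HSC, against 10.35, 10.19 and 10.82 in KO MPP and 9.22, 10.76 and 10.50 in WT MPP, with overlap in both. The other 14 members had averaged differences between -0.37 (Nup93) and 0.27 (Nup188).

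**Figure D4:**
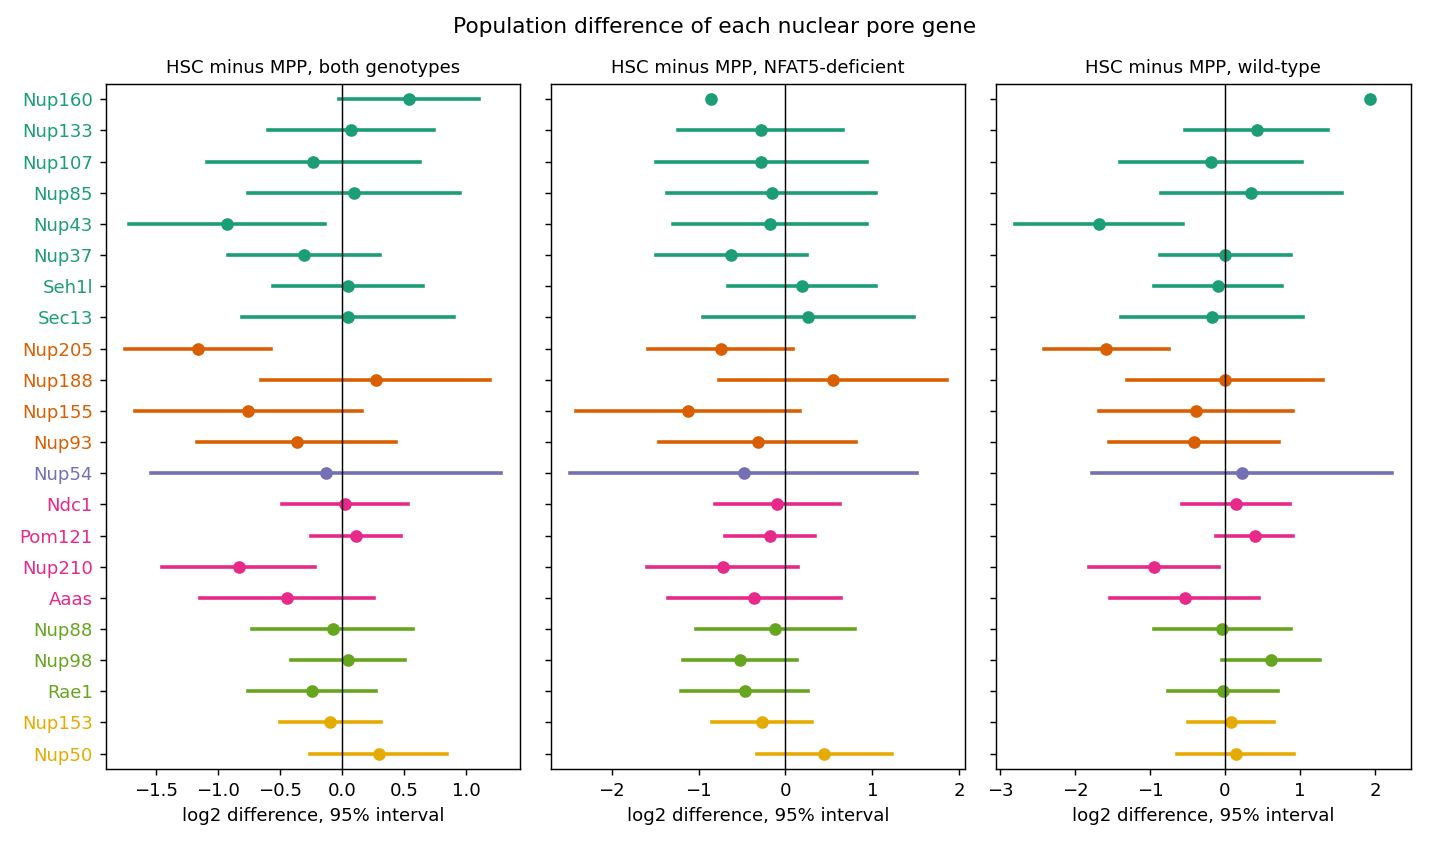
HSC minus MPP log2 difference of each nuclear pore gene (rows), averaged over both genotypes, in KO and in WT cells, with 95% intervals from limma; Nup160 has no interval within genotypes, where its value is a description. Averaged over genotypes, the intervals of Nup205, Nup210 and Nup43 lie below 0, and none of these genes passed the adjusted test.

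Within genotypes the same test called 0 of 22 members in KO cells, where 0.21% of all genes were called, and 0 of 22 in WT cells, where 0.164% were. Nup160, whose values here share arrays with those that chose the family, is left out of the next count but is part of the later ones. At an unadjusted p under 0.05, 0 of the other members passed in KO cells (7.9% of all genes) and 3 in WT cells (Nup43, Nup205 and Nup210, 8.9% of all genes). In KO cells 18 of 22 members had a lower value in HSC than in MPP, against 37.9% of all genes, and the median was -0.28, against 0.07 for all genes. In WT cells 12 of 22 were lower, against 41.4% of all genes, with a median of -0.01, against 0.05, which became 0.04 after quantile normalization and 0.03 with array weights (HSC minus MPP in wild-type, median of nuclear pore genes). These medians were not tested against each other, and their difference is part of the genotype comparison that chose the family. Neither the shares nor the medians over all genes were matched for level. HSC and MPP arrays were apart for 6 members in KO cells (16.9% of all genes) and for 3 in WT cells (12.3%). In KO cells the HSC arrays of Nup160, Nup205, Pom121, Nup210 and Nup98 all lay below the MPP arrays, which 5.39% of all genes did, and those of Nup50 lay above (11.5%). In WT cells this held for Nup205 and Nup43 on the lower side (4.74%) and for Nup160 on the higher (7.54%). Nup205 in WT cells differed by -1.58 (SE 0.38, limma adjusted p = 0.223), and by -2.09 with an adjusted p of 0.0189 without WT MPP array 66. That difference was -1.21 without WT MPP array 67, and its limma adjusted p ran up to 0.478 when single arrays were left out. Here too the number of all genes called without WT MPP array 66 is not given.

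By place in the complex, the inner ring had 3 of 4 members lower in HSC (median -0.56 averaged over genotypes). The outer ring had 3 of 8 (median 0.05) and the membrane ring 2 of 4 (median -0.21). Of Nup98, Rae1 and Nup88, 2 of 3 were lower (median -0.08), and of the basket genes 1 of 2 (median 0.10). Nup54 of the central channel differed by -0.13. Over all genes 36.6% were lower and the median was 0.06. The places were not tested against each other. Of the nuclear pore genes that the symbol rule left out, Ahctf1, which encodes the chromatin-bound ELYS protein that recruits the Y complex, read 7.38 ± 0.18 in KO HSC and 6.54 ± 1.12 in WT HSC, against 8.14 ± 0.62 in KO MPP and 7.90 ± 0.25 in WT MPP (SD, n = 3 each). Its averaged difference was -1.06 (limma adjusted p = 0.263). Ranbp2, the largest protein of the cytoplasmic filaments, differed by -0.31 (adjusted p = 0.392), with 8.97 ± 0.08 in KO HSC and 9.25 ± 0.21 in WT HSC, against 9.38 ± 0.05 in KO MPP and 9.46 ± 0.13 in WT MPP (SD, n = 3 each).

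Genes of the transport machinery that uses the pore were not called in any of the 6 comparisons. Of 24 import and export receptors measured, 0 were called between HSC and MPP, 20 had a lower value in HSC, as did 36.6% of all genes, and the median was -0.34, against 0.06 over all genes. The smallest p-values were those of Kpna3, an importin alpha (-0.93, adjusted p = 0.114), and Ipo13 (1.13, adjusted p = 0.118). With loss of NFAT5, 19 of these 24 had a higher value in KO HSC, as did 41.6% of all genes. In KO MPP 19 of 24 did, as did 38.9% of all genes. The medians were 0.47 and 0.31, against -0.05 and -0.07 over all genes, with 0 called in either population. For the receptors too, the shares and medians over all genes were not matched for level. Ran cycle genes had a median of -0.13 between HSC and MPP (6 measured, Rangrf at 0.53 and Ranbp1 at -0.31), mRNA export genes 0.02 (13 measured, Thoc2 at 0.42 and Thoc3 at 0.21) and lamina and envelope genes 0.02 (12 measured, Syne1 at 0.86 and Lbr at -0.56), all with 0 called. Markers of proliferating cells were lower in HSC for 13 of 13 genes (median -0.52), with array means of 9.35 to 9.57 in KO HSC and 9.14 to 9.43 in WT HSC, against 9.75 to 10.01 in KO MPP and 9.76 to 9.83 in WT MPP. Nup205, Nup210, Nup43 and Ahctf1 had lower averages in HSC too, while 10 of 22 members had higher ones. On WT MPP arrays 66, 67 and 75 the markers averaged 9.83, 9.76 and 9.80, where Nup205 read 7.25, 8.99 and 8.54. These marker means lay too close together for their order to be read. The part of proliferation in these differences was not tested. In sorted bulk samples, fewer cells expressing a gene and less of its RNA per cell cannot be told apart.

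**Figure D5:**
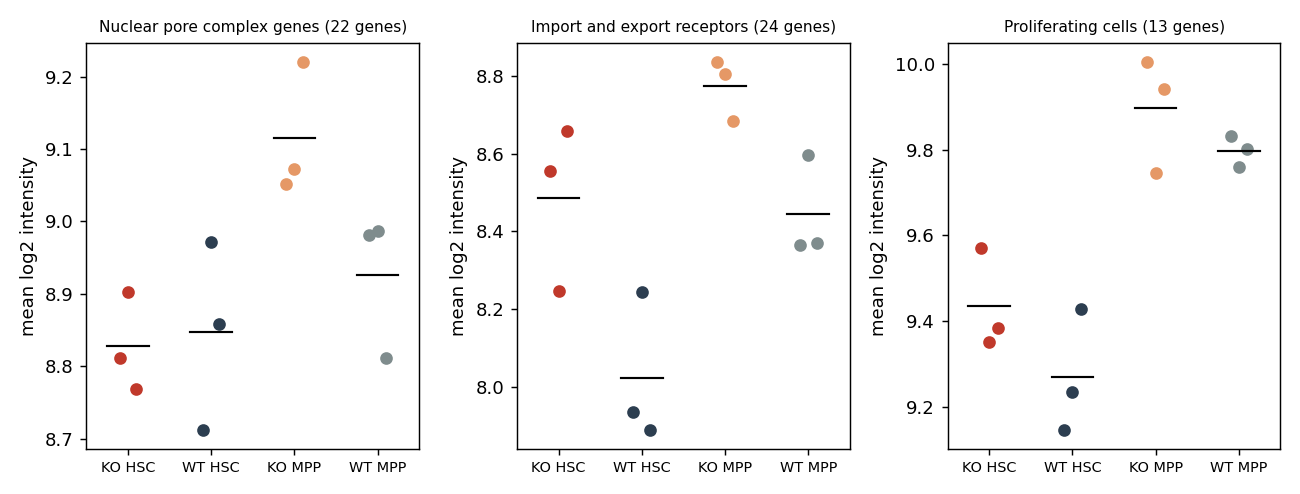
Mean log2 intensity per array of the nuclear pore genes, the import and export receptors and the markers of proliferating cells in KO HSC, WT HSC, KO MPP and WT MPP; points are arrays and bars are means of 3. The proliferation markers lie between 9.14 and 9.57 in HSC and between 9.75 and 10.01 in MPP, while the nuclear pore means lie between 8.71 and 8.97 in HSC and between 8.81 and 9.22 in MPP.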

How the data were processed

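The authors deposited 1 table of log2 intensities for 12 arrays, with 22142 probe sets. RMA and limma are listed in the submitters' processing notes, with no version; no genome build was given in the sources used here. Labelling started from 300 pg of RNA, per the labels' protocols. A single symbol was annotated for 19527 probe sets, several for 0 and none for 2615. Where a gene had several (33 genes, no member), the probe set with the highest mean stood for it, leaving 19494 genes. No further normalization or filter was applied. Array column medians ran from 6.40 to 6.53, and the number of arrays limits the precision.

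Differences were fitted with limma 3.58.1 in R 4.3.3 on a mean for each of the 4 groups, with an intensity trend and Benjamini-Hochberg adjustment over all 19494 genes. The fit was tested on simulated data with independent noise, for HSC minus MPP averaged over genotypes only. That simulation did not cover the genotype comparisons, and no result here rests on it. Alternatives were a dim filter, other variance priors and normalizations, array weights, the probe set mean, only the groups compared, a threshold of 0.10, a replicate block and leaving out each array.

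The members and lists were chosen with earlier results of these data known. By rule, array values were given for Nup160, for members called between HSC and MPP and for those with the smallest p, up to 8 in all. The 4 highest and 4 lowest levels and the 3 largest differences either way per genotype comparison could also be named. Array values of further members and the promoter motifs were chosen after values were seen. From lists with no call, the 2 genes with the smallest p were named. Figures were drawn with matplotlib 3.10.9 in Python 3.11.15.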

Additional observations from a re-analysis of the deposited data

Results flagged for a closer look

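For 4 members every KO array moved one way from the WT mean in HSC and the opposite way in MPP, or every HSC array moved one way from the MPP mean in KO cells and the opposite way in WT cells. Nup160 differed between genotypes by -1.63 in HSC and by 1.15 in MPP, and between HSC and MPP by -0.85 in KO and by 1.93 in WT cells. Nup98 differed between genotypes by -0.42 in HSC and by 0.72 in MPP, and between HSC and MPP by -0.52 in KO and by 0.61 in WT cells. Pom121 differed by -0.23 in HSC and by 0.34 in MPP, and between HSC and MPP by -0.17 in KO and by 0.40 in WT cells. Seh1l differed between HSC and MPP by 0.19 in KO and by -0.0893 in WT cells. The opposite directions were not tested for these genes, since that contrast chose the family. The share of all genes that move in this way was not computed, so nothing is read from the count of 4. Only Nup160 had groups that did not overlap in both HSC and MPP.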

How the results depend on the processing

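Under 0.10 in place of 0.05, 1 member was called between HSC and MPP in wild-type cells (Nup160, a description only). Leaving out 1 array at a time gave 0 to 1 members called for HSC minus MPP averaged over genotypes (Nup205, without WT MPP array 66). In wild-type cells it gave 0 to 2 (Nup205 and, as a description only, Nup160, without that array). The calls over all genes without that array are not given here. In the other 4 comparisons 0 members were called under every setting run. Over all genes, the calls for HSC minus MPP, mean of both genotypes, numbered 119, against 218 at a threshold of 0.10 and 79 without the HSC arrays WT 66 and KO 70, a setting chosen after seeing the data. For HSC minus MPP in wild-type cells they numbered 32, against 9 with only these groups fitted, 72 at 0.10 and 18 without those arrays. For HSC minus MPP in NFAT5-deficient cells they numbered 41, against 12 with only these groups fitted, 62 at 0.10 and 23 each with robust variances, after quantile normalization and without those arrays. The member median ran from -0.17 to -0.03 averaged over genotypes, from -0.07 to 0.06 in wild-type cells and from -0.36 to -0.28 in NFAT5-deficient cells when single arrays were left out. For KO minus WT it ran from -0.13 to 0.03 in HSC and from 0.08 to 0.23 in MPP. With the title number as a replicate block, 0 members were called in any comparison, and the calls over all genes numbered 52 averaged over genotypes (119 without the block), 5 in wild-type cells (32 without) and 3 in NFAT5-deficient cells (41 without). Deviations of same-numbered arrays correlated at -0.01 to 0.06, and whether these arrays share a recipient is not known. Fitting only the groups compared is the main setting itself for the average and the interaction. Nup133, Nup107, Nup205, Nup54 and Sec13 had levels near that of Ins2, the highest low-end anchor, and how much of their signal was background was not tested.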
